A study of Mus musculus with 23 samples.

Results

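The RNA of 10 genes of the mesenchymal program was followed across syngeneic mouse tumor models: the transcription factors Snai1, Snai2, Twist1, Twist2, Zeb1, Zeb2, Prrx1 and Prrx2, the cadherin Cdh2 and the intermediate filament gene Vim. They were chosen by symbol, and all 10 were found in both tables among 24940 gene symbols, with 1 transcript kept per symbol, the one of highest mean. On mm10, as the tumor table gives them, Snai1 lies at chr2:167538195-167542811, Snai2 at chr16:14705859-14709382, Twist1 at chr12:33957671-33959831, Twist2 at chr1:91801461-91848034, Zeb1 at chr18:5591860-5775468, Zeb2 at chr2:44983512-45113279, Prrx1 at chr1:163245119-163313650, Prrx2 at chr2:30845367-30881247, Cdh2 at chr18:16588877-16809246 and Vim at chr2:13574311-13582826. The transcript was the same in both tables except for Zeb2. One table held whole tumors and the other held cancer-associated fibroblasts (CAFs) sorted from tumors of the same lines. The 5 lines all stem from C57BL/6 mice. They are B16-F10 melanoma (B16), EO771.LMB breast carcinoma (EO771), LL/2 lung carcinoma (LL2), MC38 colon carcinoma and Pan02 pancreatic ductal carcinoma. In every group, 500000 cultured cells of 1 line were placed under the skin of the flank of immunocompetent adult female C57BL/6 mice, with no further treatment, and tumors were taken at the size that ended the experiment. Fragments of 3 tumors per line gave 15 tumor libraries. FAP+ cells of the CD45-depleted fraction of EO771, LL2, MC38 and Pan02 tumors gave 8 CAF libraries, 2 per line from separate rounds of sorting. B16 CAFs yielded no RNA of sufficient quality, so the line is absent from the CAF comparisons. Each model is 1 cell line, so a difference between models is a difference between these lines and the tumors they form. The sources do not say whether tumors of 1 line came from separate mice, and p-values measure the spread between these libraries.

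Snai1 and Snai2 encode the zinc finger repressors Snail and Slug. Zeb1 and Zeb2 encode zinc finger and homeobox repressors that bind the same E-box motifs, among them those of the E-cadherin gene. Twist1 and Twist2 are basic helix-loop-helix factors that bind DNA as dimers with E proteins, and Prrx1 and Prrx2 are paired-type homeobox factors of limb and connective tissue mesenchyme. Cdh2 (N-cadherin) and vimentin are classical products of cells that have gone through an epithelial-mesenchymal transition. All of these genes are also used by cells that are mesenchymal by origin, fibroblasts first of all, and Snai2 and Zeb2 are used in the melanocyte lineage as well. A whole tumor therefore holds their RNA from cancer cells and from stroma together. In such bulk RNA, fewer cells of a type and less RNA per cell cannot be told apart.

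Tumor libraries held 10035180 to 21946495 counts over genes. The CAF table gives RPKM, reads scaled to transcript length and library size, whose steps of 0.5 reads gave 6223306 to 19538270 reads on genes, fewest in an MC38 library. Lineage markers were checked first. The 7 melanocyte markers summed to 22590 to 28220 CPM (counts scaled to library size, with TMM factors) in B16 tumors and to 18.7 to 61.3 CPM in the other models. The 10 fibroblast markers summed to 439 to 1699 CPM in B16 tumors and to 2882 to 49080 CPM elsewhere, with Pan02 highest at 43290 to 49080 CPM. Muscle markers were uneven between tumors of 1 model, from 4.08 to 1020 CPM in sum in LL2, from 361 to 2899 in MC38 and from 36.0 to 823 in Pan02, against 5.41 to 13.2 in B16 and EO771. In CAFs, all 10 fibroblast markers were at 1 RPKM or more in every library, and their sum was 7040 to 9791 RPKM in EO771 and LL2 and 2391 to 3892 in Pan02. The MC38 libraries stood apart from each other, at 6584 RPKM in replicate 1 and 1543 in replicate 2. Markers of other cells differed between the CAF groups. The 5 epithelial markers summed to 832 to 1121 RPKM in Pan02, 494 to 500.3 in EO771, 200.4 to 209 in LL2 and 1.72 to 3.73 in MC38. The EO771 sum was nearly all Krt8 (mean 493 RPKM), with every other marker at a mean of 1.97 or less. By the mean of log2(RPKM + 1) over the list, LL2 (3.858 to 3.92) lay above EO771 (2.195 to 2.647). The 9 leukocyte markers summed to 76.3 to 92.0 RPKM in EO771 and to 12.4 to 61.6 in the other groups. Ptprc (CD45) was at a mean of 0.925 RPKM in EO771 and at 0.091 or less elsewhere. Csf1r, Cd68, Adgre1, Itgam and Lyz2 also had their highest mean in EO771. Cd14 was highest in Pan02 (mean 38.7 RPKM against 9.135 in EO771), and Cd79a in MC38 (5.11 against 4.17). Cd3e, at 0.124 RPKM or less, was highest in LL2. The part of these cells in the results that follow was not tested.

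**Figure D1:**
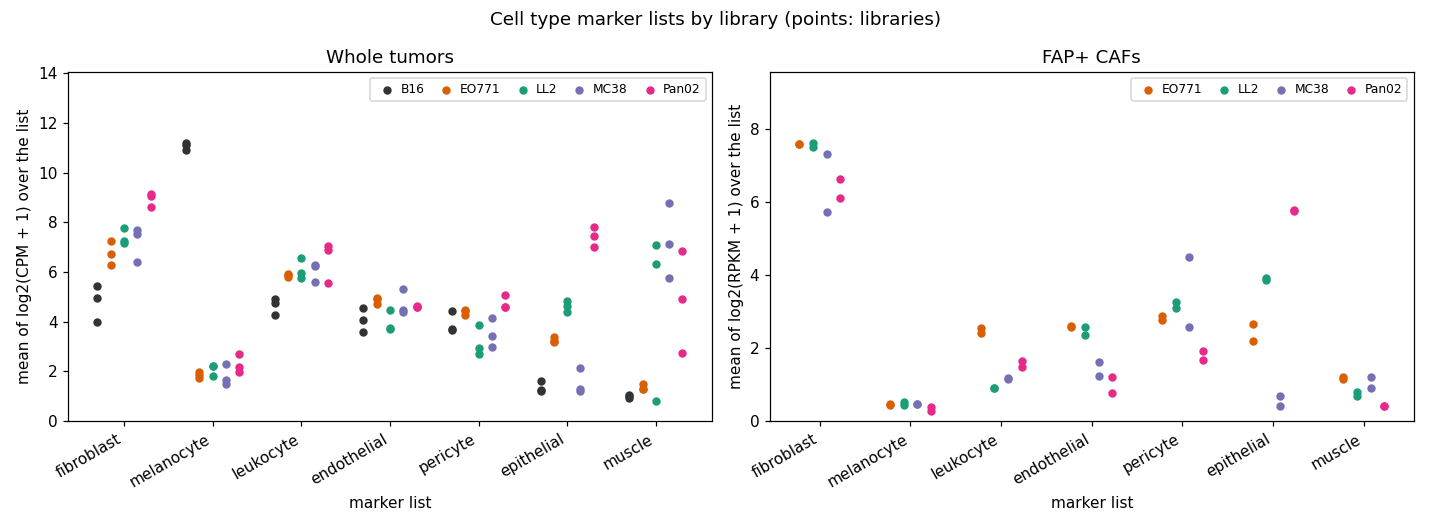
Mean of log2(CPM + 1) in tumors (left) and of log2(RPKM + 1) in FAP+ CAFs (right) over each of 7 marker lists, with 1 point per library and colors for the models. B16 tumors lie lowest for fibroblast markers, at 3.97 to 5.43, and 1 MC38 CAF library lies at 5.73 while the other is at 7.33.

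In tumors, all 10 genes differed among the 5 models (edgeR quasi-likelihood F test, adjusted p from 9.7e-10 for Twist1 to 0.000967 for Snai2). Of all 15732 genes tested, 91.1% did so, so a difference among models was the rule and not particular to these genes. B16 tumors had the lowest RNA of Twist1, Twist2, Prrx1, Prrx2, Snai1 and Zeb1 and the highest of Cdh2. LL2 tumors had the highest Twist1, Prrx1 and Vim, Pan02 tumors the highest Prrx2, and EO771 tumors the lowest Cdh2.

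**Figure D2:**
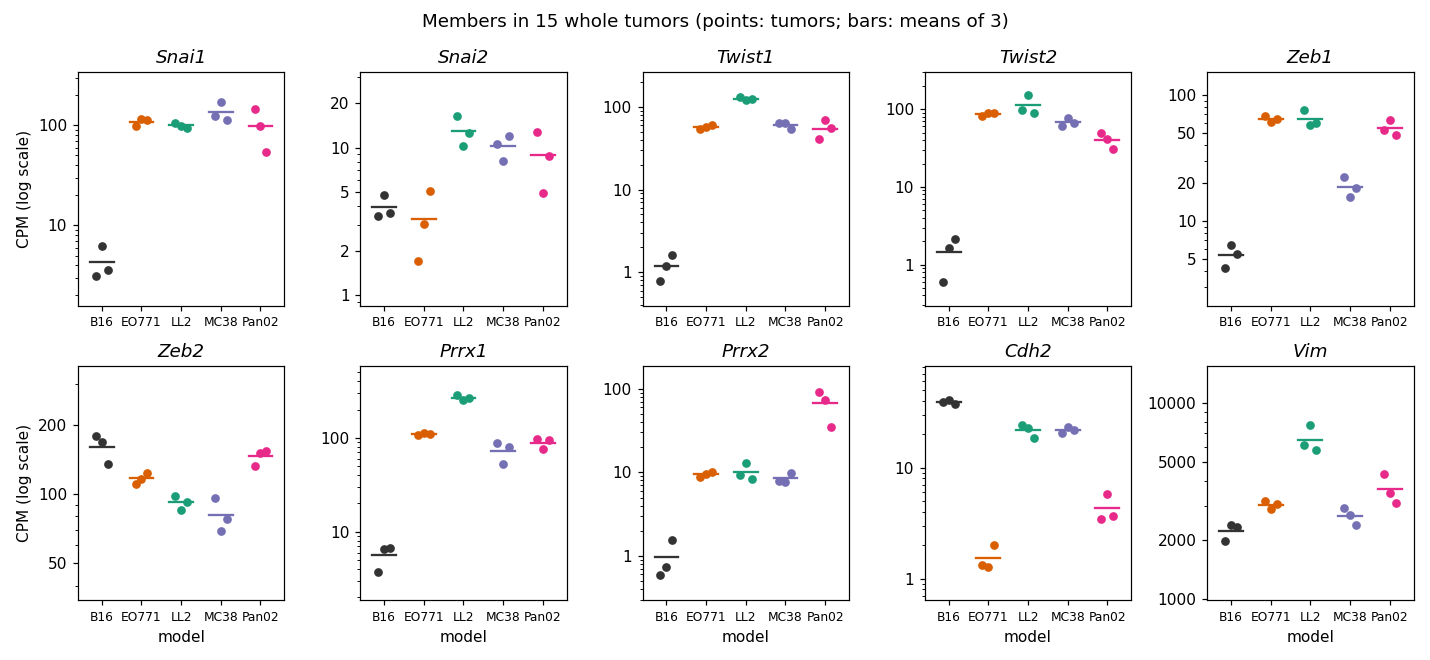
CPM of each gene (log axis) in the 3 tumors of each model, with the mean as a bar. B16 tumors lie below every other tumor for Snai1, Twist1, Twist2, Zeb1, Prrx1 and Prrx2 and above every other tumor for Cdh2.

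For the Snail genes, Snai1 was at 3.14, 6.28 and 3.59 CPM in the B16 tumors. It was at 99.0, 115 and 113 CPM in EO771, 106, 98.7 and 94.8 in LL2, 125, 171 and 112 in MC38, and 145, 98.6 and 53.9 in Pan02. The B16 tumors did not overlap with any other, whereas the Pan02 tumors spread over the ranges of EO771, LL2 and MC38. The log2 fold change against the mean of the other 4 models, used for all tumor values that follow, was -4.65 ± 0.33 (SE) in B16 (adjusted p = 4.6e-08). EO771 (1.14 ± 0.22) and MC38 (1.55 ± 0.21) passed the test upward, and LL2 (0.98 ± 0.22) and Pan02 (0.97 ± 0.22) fell just short of the log2 threshold of 1. LL2 passed it without B16 replicate 2, LL2 replicate 3, Pan02 replicate 1 or MC38 replicate 2 (up to 1.08), and Pan02 without B16 replicate 2, LL2 replicate 1, Pan02 replicate 3 or MC38 replicate 2 (up to 1.28). Snai2 was low throughout and spread more between tumors of a model. It reached 16.3, 10.3 and 12.6 CPM in LL2, 10.5, 8.09 and 12.0 in MC38 and 12.8, 4.92 and 8.82 in Pan02, against 3.44, 4.79 and 3.59 in B16 and 1.69, 3.06 and 5.05 in EO771. It was called higher in LL2 (1.16 ± 0.28, adjusted p = 0.0043) and lower in EO771 (-1.36 ± 0.34, adjusted p = 0.00415). Without LL2 replicate 1 the LL2 value was 0.96 and below the threshold. B16, at -0.99 ± 0.33, was not called but passed without replicate 2 of B16, LL2, Pan02 or MC38 or without either of the first 2 EO771 tumors (down to -1.16).

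The Snai1 start region is shown because it was the one member promoter that held the E-box CACCTG, the motif read by Snail and Zeb proteins. It is the 250 bases before the RefSeq start on GRCm38.p6 (mm10), with CACCTG in capitals. The motif was searched on both strands (reverse complement CAGGTG) and was held by 17.2% of 32851 promoters of this length. A match is a description of these letters and not of binding.
Snai1, chr2:167537945-167538194, plus strand: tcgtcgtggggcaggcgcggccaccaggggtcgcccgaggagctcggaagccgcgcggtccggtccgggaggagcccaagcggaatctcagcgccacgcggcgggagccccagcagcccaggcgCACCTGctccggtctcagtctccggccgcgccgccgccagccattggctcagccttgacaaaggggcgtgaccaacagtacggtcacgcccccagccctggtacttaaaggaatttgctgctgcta

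Both Twist genes were near 1 CPM in B16 tumors. Twist1 was at 0.786, 1.18 and 1.60 CPM in B16. In the other models it was at 54.7, 56.6 and 59.6 CPM in EO771, 133, 120.5 and 125 in LL2, 63.3, 63.0 and 54.0 in MC38, and 40.4, 68.6 and 55.3 in Pan02. LL2 tumors lay above all others and B16 tumors below all others. The fold change was -5.80 ± 0.22 in B16 (adjusted p = 9.89e-11) and 2.52 ± 0.13 in LL2 (adjusted p = 8.59e-09). EO771 (1.09 ± 0.13), MC38 (1.18 ± 0.13) and Pan02 (1.01 ± 0.13) were also called higher, against a mean that includes B16. The Pan02 value was 0.81 without Pan02 replicate 2, 0.97 without B16 replicate 1 and 0.90 under total-count scaling, below the threshold in each. Twist2 followed the same outline, at 0.589, 1.62 and 2.14 CPM in B16 and 96.4, 151 and 90.2 in LL2, with 81.8, 89.7 and 88.5 in EO771, 61.0, 76.8 and 66.3 in MC38 and 49.1, 41.6 and 30.9 in Pan02. Its fold change was -5.53 ± 0.31 in B16 (adjusted p = 4.33e-09). It was called higher in LL2 (2.19 ± 0.18), EO771 (1.71 ± 0.19) and MC38 (1.28 ± 0.19) but not in Pan02 (0.35 ± 0.20, adjusted p = 0.15). Of the 3174 exon bases of Twist2 in the GENCODE M21 annotation, 46.5% are shared with the antisense transcript Gm29100. The Twist2 transcript counted here has 1331 bases, and the part of it that is shared was not measured. Reads were counted on both strands together, so reads on any shared bases cannot be told apart.

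The Twist start regions are shown because the 2 genes fell together in B16 tumors and came apart in the Pan02 CAFs described further on. Capitals mark TATAAA (reverse complement TTTATA, held by 12.4% of promoters) and the GC box GGGCGG, read on the other strand as CCGCCC and held by 32.7%. Twist1 held 1 TATAAA and 1 GC box, and Twist2 held 4 GC boxes, 2 of them side by side, and no TATAAA. Neither held CACCTG or CATATG, the latter found in 3.46% of promoters.
Twist1, chr12:33957421-33957670, plus strand: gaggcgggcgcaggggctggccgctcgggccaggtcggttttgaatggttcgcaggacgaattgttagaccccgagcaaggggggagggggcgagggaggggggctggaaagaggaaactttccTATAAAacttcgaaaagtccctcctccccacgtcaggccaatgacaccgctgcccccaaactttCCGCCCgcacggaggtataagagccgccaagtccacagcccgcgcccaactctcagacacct
Twist2, chr1:91801211-91801460, plus strand: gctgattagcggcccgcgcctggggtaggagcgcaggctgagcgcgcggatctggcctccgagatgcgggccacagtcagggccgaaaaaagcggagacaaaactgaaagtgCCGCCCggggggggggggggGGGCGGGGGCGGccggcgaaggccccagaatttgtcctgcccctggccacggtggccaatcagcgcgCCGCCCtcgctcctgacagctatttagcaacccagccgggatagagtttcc

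The Zeb genes moved apart in B16 tumors. Zeb1 was at 4.22, 6.47 and 5.49 CPM in B16 and at 22.1, 15.5 and 18.2 in MC38, against 68.4, 61.1 and 64.7 in EO771, 76.0, 57.6 and 60.1 in LL2 and 52.2, 63.3 and 47.6 in Pan02. The B16 and MC38 tumors did not overlap with each other or with any other model. The fold change was -3.06 ± 0.17 in B16 (adjusted p = 4.14e-09), and the 3 models with high levels were called higher, at 1.41 ± 0.12 in EO771, 1.40 ± 0.12 in LL2 and 1.09 ± 0.13 in Pan02. The Pan02 value was 0.96 without Pan02 replicate 2 and 0.98 under total-count scaling. MC38, at -0.84 ± 0.14 (adjusted p = 0.000273), was below the fold threshold. Zeb2, by contrast, had its highest mean in B16, with 179, 168 and 135 CPM. It was at 133, 150.4 and 154 CPM in Pan02, 111, 117 and 124 in EO771, 98.6, 85.7 and 92.9 in LL2 and 96.1, 69.2 and 78.3 in MC38. B16 and Pan02 tumors overlapped. No model was called for Zeb2, and its largest values were 0.59 ± 0.10 in B16 (adjusted p = 0.000165) and -0.64 ± 0.11 in MC38 (adjusted p = 0.000295). Zeb2 shares 2.85% of its exon bases with the antisense gene Zeb2os, and Zeb1 shares 1.93% with Gm10125.

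Prrx1 and Prrx2 were both low in B16 tumors but peaked in different models. Prrx1 was at 3.73, 6.53 and 6.78 CPM in B16 and at 288, 250.4 and 267 in LL2. It was at 107, 112 and 108 CPM in EO771, 96.2, 76.0 and 94.8 in Pan02 and 87.2, 52.0 and 78.9 in MC38. LL2 tumors lay above all others, with a fold change of 2.58 ± 0.14 (adjusted p = 1.28e-08), and B16 tumors below all others, at -4.34 ± 0.22 (adjusted p = 1.29e-09). Prrx2 was at 92.8, 72.9 and 34.8 CPM in Pan02. It was at 8.90, 9.68 and 10.2 CPM in EO771, 9.24, 12.9 and 8.33 in LL2, 7.80, 7.75 and 9.86 in MC38, and 0.589, 0.746 and 1.55 in B16. Every Pan02 tumor exceeded every other tumor although they spread among themselves, and the fold change was 3.63 ± 0.22 (adjusted p = 2.3e-08) in Pan02 and -3.91 ± 0.36 (adjusted p = 6.52e-07) in B16.

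The Prrx start regions are shown since the balance between the 2 genes turned over between models. Prrx1 held none of the 4 motifs searched, and Prrx2 held 2 GC boxes (capitals). Their GC content was 47.6% and 70.0%, where the median of all promoters was 52.4%.
Prrx1, chr1:163313651-163313900, minus strand: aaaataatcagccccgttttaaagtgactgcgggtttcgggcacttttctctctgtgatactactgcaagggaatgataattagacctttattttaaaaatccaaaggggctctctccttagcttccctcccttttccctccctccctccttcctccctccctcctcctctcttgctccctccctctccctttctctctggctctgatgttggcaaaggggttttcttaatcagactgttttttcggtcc
Prrx2, chr2:30845117-30845366, plus strand: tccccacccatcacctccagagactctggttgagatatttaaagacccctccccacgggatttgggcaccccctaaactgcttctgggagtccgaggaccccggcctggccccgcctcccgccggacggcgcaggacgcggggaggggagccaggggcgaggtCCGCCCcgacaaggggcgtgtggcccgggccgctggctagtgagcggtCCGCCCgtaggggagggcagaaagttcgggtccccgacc

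Cdh2 did not follow the transcription factors. It was at 38.8, 40.7 and 37.2 CPM in the B16 tumors, where most of the factors were lowest. It was at 24.1, 22.9 and 18.6 CPM in LL2 and 20.5, 22.9 and 21.8 in MC38, fell to 3.47, 5.73 and 3.66 in Pan02 and was lowest in EO771 at 1.32, 1.27 and 2.00. B16 tumors lay above and EO771 tumors below all others, and LL2 and MC38 overlapped. All 5 models were called, upward in B16 (2.38 ± 0.14, adjusted p = 4.89e-09), LL2 (1.34 ± 0.14) and MC38 (1.33 ± 0.14) and downward in EO771 (-3.46 ± 0.21, adjusted p = 2.42e-08) and Pan02 (-1.60 ± 0.18). Vim was the most abundant of the 10 genes in every tumor. On a per-length scale (TPM, counts over transcript length as a share of the library, with 1 transcript per gene) it held ranks 2 to 27 of all gene symbols, at 2629 to 9104 TPM. It was at 6081, 7684 and 5758 CPM in LL2, above all other tumors, and at 1979.6, 2399.9 and 2336 in B16. The remaining models lay between 2406 and 4334 CPM. LL2 alone was called (1.19 ± 0.11, adjusted p = 2.41e-06), and B16 was at -0.73 ± 0.13 (adjusted p = 0.000212).

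By model, B16 tumors had 1 of the 10 genes called higher and 6 called lower, where 13.1% and 19.6% of all genes were called. EO771 tumors had 4 higher and 2 lower (background 9.71% and 13.7%). LL2 tumors had 7 higher and none lower (8.51% and 8.3%). The 3 genes not called in LL2 were Snai1, Zeb2 and Prrx2. MC38 tumors had 4 higher and none lower (11.2% and 8.23%). Pan02 tumors had 3 higher and 1 lower (18.8% and 7.92%), and 2 calls in all without Pan02 replicate 2. The median log2 fold change of the 10 genes was lowest in B16 at -3.48 and highest in LL2 at 1.27, with EO771 at 0.54, Pan02 at 0.53 and MC38 at 0.47, where the median of all genes tested lay between -0.04 and 0.05. TMM moved all values by -0.14 in MC38 and by 0.11 in Pan02 relative to total-count scaling, and by less than these in the other contrasts. The contrasts share their tumors, so a fall in B16 raises the value of every other model. B16 tumors were also those with the lowest fibroblast marker sum (439 to 1699 CPM), with 9 of the 10 markers at 1 CPM or more in each tumor, and the part of this in the 6 genes called lower was not tested.

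**Figure D3:**
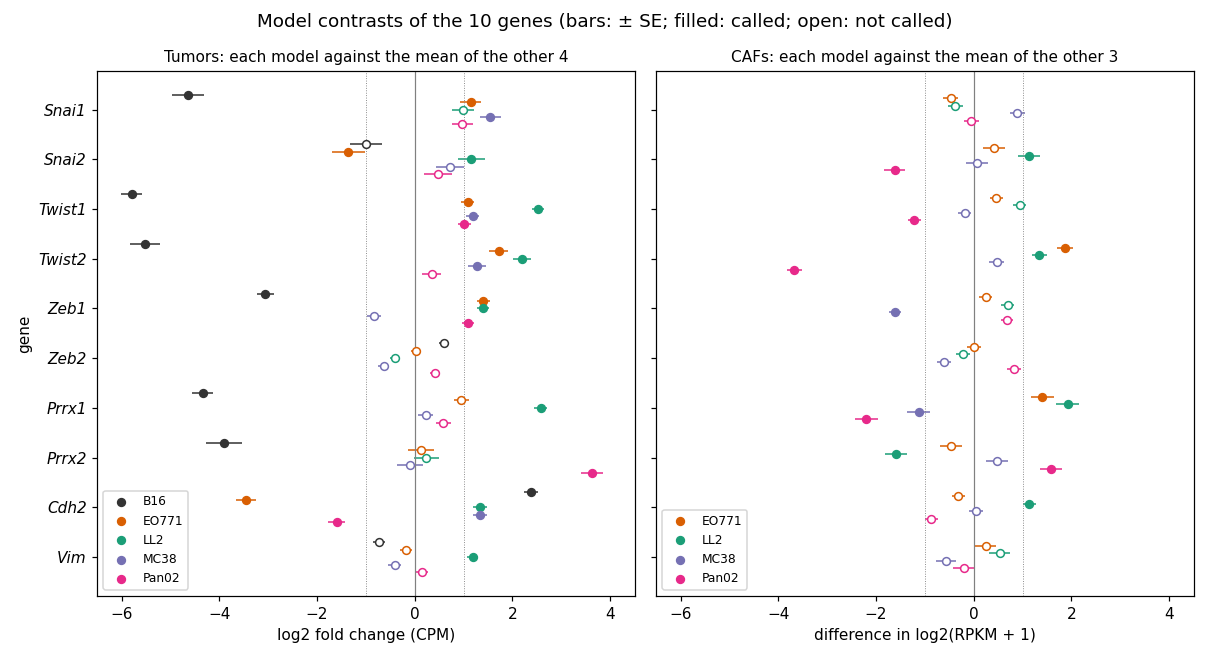
Log2 fold change of each gene by model, relative to the other models averaged, in tumors (left) and difference in log2(RPKM + 1) in CAFs (right), with bars of 1 SE. Filled points were called (adjusted p under 0.05 and a value of at least 1 either way, dotted lines). B16 tumors stand at -3.06 to -5.80 for 6 genes, and Pan02 CAFs at -3.68 for Twist2.

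When the models were put in order by mean, 16 of 40 neighboring steps in tumors passed the pairwise test at an adjusted p under 0.05. B16 was last for Snai1, Twist1, Twist2, Zeb1, Prrx1, Prrx2 and Vim, and the step down to it passed for all of these except Vim (0.26 ± 0.15 below MC38, adjusted p = 0.163). For Snai1, no other step passed, so MC38, EO771, LL2 and Pan02 were not set apart by neighbors. For Twist1 and Prrx1 the step from LL2 to the next model also passed (1.07 ± 0.17 above MC38 and 1.30 ± 0.20 above EO771). Twist2 fell by a step that passed from MC38 to Pan02 (0.75 ± 0.25, adjusted p = 0.021), and Zeb1 from Pan02 to MC38 (1.55 ± 0.17). The order of Snai2 was LL2, MC38, Pan02, B16 and EO771, with a step that passed from Pan02 to B16 only (1.17 ± 0.39, adjusted p = 0.017). No step passed for Zeb2 (adjusted p from 0.0506 to 0.371), but the ends of its order did differ. B16 lay 0.98 ± 0.13 above MC38 in the pairwise test (adjusted p = 3.01e-05). Prrx2 passed from Pan02 to LL2 (2.72 ± 0.34) and from MC38 to B16 (3.05 ± 0.39). Cdh2 passed at every step except that from LL2 to MC38 (0.01 ± 0.19, adjusted p = 0.975), and Vim from LL2 to Pan02 only (0.84 ± 0.15). Over all genes, the share past the same test was 58.6% between B16 and EO771, 56.6% between B16 and LL2, 60% between B16 and MC38, and 64.3% between B16 and Pan02. It was 44.4% between EO771 and LL2, 49.3% between EO771 and MC38, 61.2% between EO771 and Pan02, 43.8% between LL2 and MC38, 48.6% between LL2 and Pan02, and 58.9% between MC38 and Pan02.

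In the sorted CAFs, 9 of the 10 genes differed among the 4 models (limma F test on log2(RPKM + 1), adjusted p from 1.28e-05 for Twist2 to 0.00572 for Snai1), and Vim did not pass (adjusted p = 0.0689). Of all 13598 genes tested, 80.4% differed. By group mean, LL2 CAFs carried the highest Prrx1, Snai2 and Cdh2, and EO771 CAFs the highest Twist2. MC38 CAFs had the highest Snai1 and the lowest Zeb1. Pan02 CAFs had the highest Prrx2 and Zeb2 and the lowest Twist1, Twist2, Prrx1 and Snai2. In pairwise limma tests, LL2 did not pass against EO771 for Prrx1, Snai2 or Twist2 (adjusted p = 0.32, 0.161 and 0.145). LL2 also had the highest mean of Twist1, Zeb1 and Vim, without passing against the next model. The CAF table was normalized on its own, and no test was run between CAFs and tumors.

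**Figure D4:**
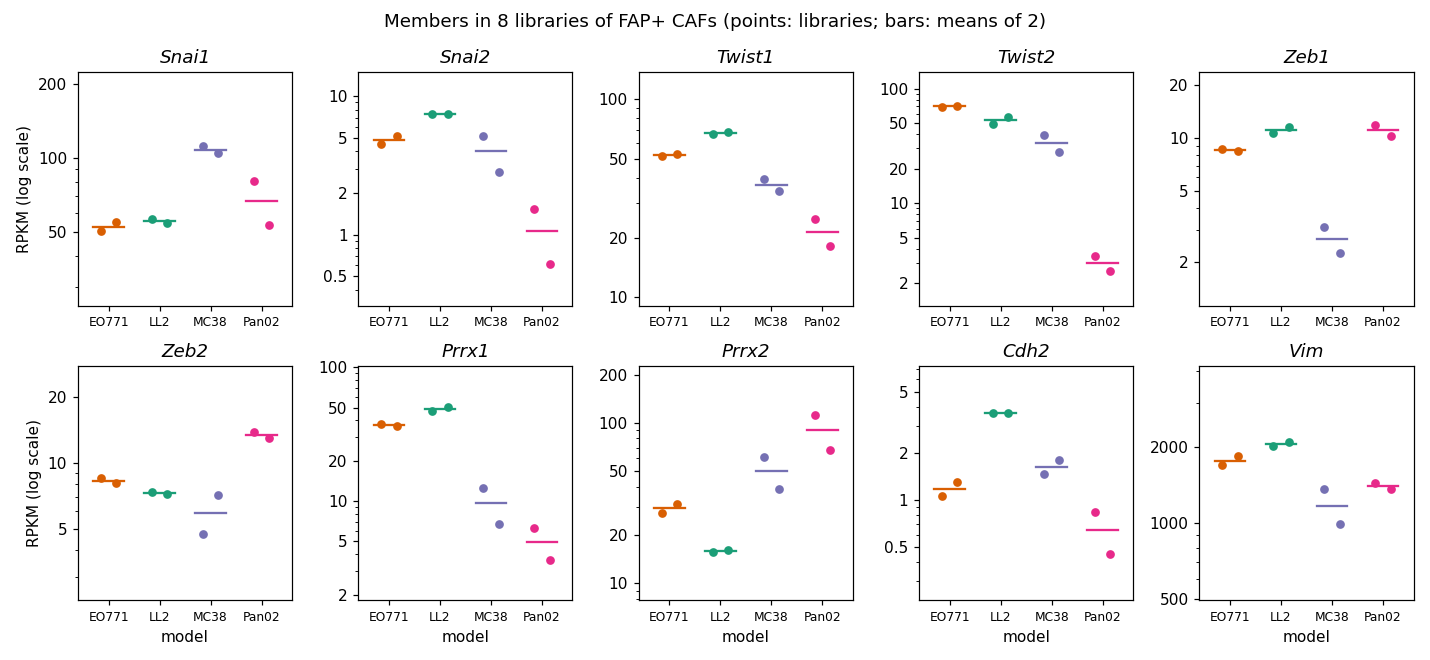
RPKM of each gene (log axis) in the 2 CAF libraries of each model, with the mean as a bar. Pan02 CAFs lie at 2.54 and 3.44 RPKM for Twist2, where the other libraries are at 28.0 or more.

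Twist2 gave the widest separation. It was at 69.6 and 69.9 RPKM in EO771, 48.9 and 57.0 in LL2, 39.3 and 28.0 in MC38, and 3.44 and 2.54 in Pan02 CAFs. No models overlapped. The difference in log2(RPKM + 1) from the mean of the other 3 models, used for all CAF values, was -3.68 ± 0.16 (SE) in Pan02 (adjusted p = 4.55e-06), 1.87 ± 0.16 in EO771 and 1.34 ± 0.16 in LL2. Twist1 had the same lowest model with a smaller range, at 24.8 and 18.1 RPKM in Pan02, 39.5 and 34.4 in MC38, 51.3 and 52.7 in EO771 and 66.2 and 68.4 in LL2. It was called in Pan02 (-1.21 ± 0.13, adjusted p = 0.000284), a call lost without Pan02 replicate 2 (-0.999). LL2 was at 0.95 ± 0.13 and was called without Pan02 replicate 1 (1.02).

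Prrx1 and Prrx2 ran in opposite directions across the CAF groups. Prrx1 was at 47.3 and 50.7 RPKM in LL2, 37.7 and 36.4 in EO771, 12.5 and 6.78 in MC38 and 6.33 and 3.64 in Pan02, while Prrx2 was at 15.6 and 16.2 in LL2, 27.5 and 31.1 in EO771, 61.4 and 38.8 in MC38 and 113 and 68.0 in Pan02. Neither gene overlapped between models. Prrx1 was called higher in LL2 (1.93 ± 0.24) and EO771 (1.40 ± 0.24) and lower in Pan02 (-2.21 ± 0.24, adjusted p = 0.000252) and MC38 (-1.12 ± 0.24, adjusted p = 0.0048). Prrx2 was called higher in Pan02 (1.59 ± 0.23, adjusted p = 0.000984) and lower in LL2 (-1.60 ± 0.23, adjusted p = 0.00196). Without MC38 replicate 2, the library with the low fibroblast markers, Prrx1 in MC38 was at -0.73 and not called.

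Zeb1 was at 3.13 and 2.24 RPKM in MC38 CAFs, below all others, and at 8.71 and 8.50 in EO771, 10.7 and 11.6 in LL2 and 11.9 and 10.3 in Pan02. The MC38 difference was -1.61 ± 0.13 (adjusted p = 6.97e-05) and passed with either MC38 library left out. Zeb2 was at 13.8 and 12.9 RPKM in Pan02, above all others, and at 8.54 and 8.04 in EO771, 7.34 and 7.17 in LL2 and 4.71 and 7.11 in MC38, with no model called (0.83 ± 0.14 in Pan02). Snai1 was at 112 and 105 RPKM in MC38, above all others, and between 50.5 and 80.4 in the remaining libraries. Its MC38 difference of 0.89 ± 0.15 (adjusted p = 0.00198) was below the fold threshold. Snai2 was far lower, at 7.48 and 7.47 RPKM in LL2, 4.54 and 5.15 in EO771, 5.11 and 2.85 in MC38 and 1.52 and 0.613 in Pan02. It was called higher in LL2 (1.14 ± 0.22, adjusted p = 0.00795) and lower in Pan02 (-1.62 ± 0.22, adjusted p = 0.000841). The LL2 call was lost with either LL2 library left out (adjusted p = 0.076 and 0.0794).

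Cdh2 was scarce in CAFs, at 3.63 and 3.64 RPKM in LL2, 1.47 and 1.80 in MC38, 1.06 and 1.30 in EO771 and 0.839 and 0.452 in Pan02. Only LL2 was called (1.14 ± 0.13, adjusted p = 0.000888), and Pan02 was at -0.87 ± 0.13, or -1.04 and called without Pan02 replicate 1. The recovered reads behind these values were 397 and 401 in LL2 and 65.5 and 39 in Pan02. Vim was at 2028 and 2094 RPKM in LL2, 1698 and 1848 in EO771, 1447 and 1362 in Pan02 and 1362 and 991 in MC38. Its largest difference was -0.57 ± 0.21 in MC38 (adjusted p = 0.0494), and it ranked 5 to 22 among all gene symbols per length.

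By model, EO771 CAFs had 2 of the 10 genes called higher and none lower (8.05% and 7.06% of all genes). LL2 CAFs had 4 higher and 1 lower (3.89% and 5.13%), MC38 CAFs none higher and 2 lower (10.9% and 9.87%), and Pan02 CAFs 1 higher and 4 lower (9.73% and 8.41%). Without MC38 replicate 2, 1 gene was called in MC38. The median difference of the 10 genes ran from -0.54 in Pan02 and -0.07 in MC38 to 0.24 in EO771 and 0.82 in LL2, with the median of all genes between -0.03 and 0.00. Pan02 CAFs also had the highest sum of epithelial markers. Within it, Epcam was higher in LL2 (mean 2.22 RPKM against 1.42 in Pan02) and Krt8 in EO771 (493 against 465). Of the 10 fibroblast markers, 6 had their lowest group mean in Pan02 (Col1a1, Col1a2, Col3a1, Fap, Thy1 and Pdpn). Thy1 was at 23.4 RPKM in Pan02 against 94.6 to 237 in the other groups. Dcn, Lum and Pdgfra were lowest in MC38, at means of 210, 31.5 and 17.05 RPKM, against 447, 82.5 and 23.0 in Pan02. Pdgfrb was lowest in LL2 (26.2 RPKM, against 59.7 in Pan02). The 6 endothelial markers summed to 29.1 to 37.3 RPKM in EO771 and LL2 CAFs, the groups with high Prrx1, and to 4.65 to 15.02 in Pan02 and MC38. The 5 pericyte markers summed to 161 RPKM in MC38 replicate 1 and 38.0 in replicate 2, against 26.1 to 60.9 in the other groups. The part of these cells in the Twist2 and Prrx1 values was not tested. In the order by mean, 13 of 30 neighboring steps passed, or 8 without any 1 of the EO771 or LL2 libraries. The step from MC38 down to Pan02 passed for Snai1 (0.71 ± 0.19, adjusted p = 0.0142), Snai2 (1.27 ± 0.27), Twist1 (0.77 ± 0.16), Twist2 (3.11 ± 0.19) and Prrx1 (0.81 ± 0.29, adjusted p = 0.0432). That from EO771 to MC38 passed for Zeb1 (1.39 ± 0.16), Prrx1 (1.89 ± 0.29) and Twist1 (0.48 ± 0.16). Steps between LL2 and EO771 passed for Prrx2 only (0.84 ± 0.28, adjusted p = 0.0488). No step passed for Vim. Between the ends of its order, LL2 lay 0.83 ± 0.26 above MC38 in the pairwise test (adjusted p = 0.0325), though its F test over all models did not pass. Among all genes the pairwise test was passed by 36.2% between EO771 and LL2, 56.3% between EO771 and MC38, 53.2% between EO771 and Pan02, 48.7% between LL2 and MC38, 35.5% between LL2 and Pan02, and 58.7% between MC38 and Pan02.

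The balance within each pair was taken as the ratio of TPM in 1 library, a description with no test. Snai1 exceeded Snai2 in all 23 libraries. The ratio was 1.14, 1.63 and 1.24 in B16 tumors and 27.7 to 72.7 in EO771 tumors, with the other tumors between 7.59 and 26.3, and in CAFs it ran from 7.27 in LL2 to 87.8 in Pan02. Twist1 and Twist2 stayed close, at 0.517 to 1.46 in all 15 tumors and 0.737 to 1.36 in EO771, LL2 and MC38 CAFs, except in Pan02 CAFs, where Twist1 exceeded Twist2 with ratios of 7.22 and 7.14. The ratio in Pan02 tumors was 0.672, 1.35 and 1.46. Zeb1 over Zeb2 was 0.0375 to 0.0648 in B16 tumors, 0.356 to 0.370 in MC38 tumors and 0.492 to 1.23 in the remaining tumors. Prrx1 over Prrx2 was 0.0535 and 0.0563 in Pan02 CAFs and 0.175 and 0.203 in MC38 CAFs, against 1.17 to 1.37 in EO771 and 3.02 to 3.13 in LL2 CAFs. In tumors it was below 1 in all Pan02 tumors (0.235, 0.236 and 0.618) and in 1 B16 tumor (0.990).

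**Figure D5:**
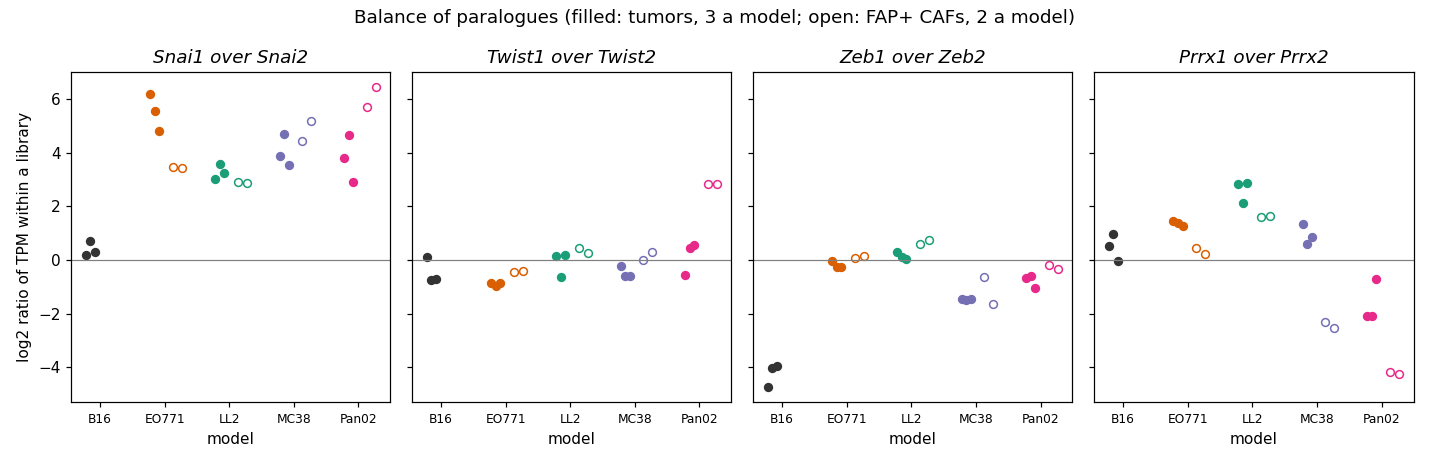
Log2 ratio of TPM of the first to the second paralogue within each library, with filled points for tumors and open points for CAFs. Pan02 CAFs stand near 2.84 for Twist1 over Twist2 and near -4.19 for Prrx1 over Prrx2, and B16 tumors near -4.24 for Zeb1 over Zeb2.

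Set side by side on the TPM scale, with the tables normalized separately and no test between them, Pan02 tumors and CAFs differed most in Twist2, at 69.2 ± 18.8 TPM (SD, n = 3) in tumors and 8.90 ± 1.92 (n = 2) in CAFs. Twist1 in the same model was at 75.8 ± 19.9 and 64.0 ± 14.3 TPM. Prrx1 in Pan02 was at 40.4 ± 5.05 TPM in tumors and 14.9 ± 5.74 in CAFs, and Prrx2 at 136 ± 65.1 and 269 ± 95.1. Per length, Snai1 was the most abundant of the 8 factors at the median of the tumors (141 TPM) and of the CAFs (160.5 TPM), followed by Twist2 (122 TPM) in tumors and by Twist1 and Twist2 (118.5 and 118.4) in CAFs. Snai2 was the least abundant factor at both medians, at 9.31 and 12.2 TPM.

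Other genes of the program were read from lists. Among 17 partners and inhibitors of these factors (E proteins, Hand and Id proteins, co-repressors and the ligases that turn over Snail), 16 were tested in tumors and 15 differed, and 13 of 16 differed in CAFs, both near the shares of all genes (91.1% and 80.4%). Hand1, a helix-loop-helix factor that can pair with Twist, rose in EO771 tumors to 168 ± 17.7 CPM (SD, n = 3), with 0.0982 to 8.43 in the other tumors (8.78 ± 0.48, adjusted p = 1.23e-08), and in EO771 CAFs to 47.9 ± 2.02 RPKM (n = 2), with at most 0.023 elsewhere (5.61 ± 0.10). Id proteins bind E proteins and keep them from DNA. Id1 fell in B16 tumors (2.77 ± 0.597 CPM, -3.23 ± 0.23) and was called higher in Pan02 CAFs (71.8 ± 38.8 RPKM, 1.73 ± 0.39), where its 2 libraries spread widely and the other models reached 47.1 RPKM. Id4 rose in Pan02 tumors (4.69 ± 1.23 CPM, 3.72 ± 0.46) and Id2 fell in MC38 CAFs (4.06 ± 0.979 RPKM, -2.20 ± 0.20). The list had 2 genes higher and 4 lower in B16 tumors with a median of 0.00, where 13.1% and 19.6% of all genes were called.

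Of 24 other mesenchymal regulators, 20 were tested in each table and 19 differed in each (91.1% of all genes in tumors and 80.4% in CAFs). In B16 tumors 10 of the 20 were called lower and 3 higher (median -1.46), where 19.6% and 13.1% of all genes were. In EO771 tumors 10 were lower and 3 higher (median -1.08, background 13.7% and 9.71%), and in Pan02 tumors 9 higher and 2 lower (median 0.58, background 18.8% and 7.92%). The forkhead genes Foxq1 and Foxc2 rose in Pan02 tumors to 108 ± 43.0 and 89.8 ± 27.9 CPM (9.09 ± 0.37 and 5.26 ± 0.17) and in Pan02 CAFs to 39.4 ± 5.27 and 28.9 ± 7.92 RPKM (5.21 ± 0.14 and 3.64 ± 0.19). Tbx3, a T-box repressor, fell in B16 tumors (0.879 ± 0.824 CPM, -5.18 ± 0.64). Hmga2, a chromatin protein of embryonic mesenchyme, fell in Pan02 CAFs to 0.0505 ± 0.0247 RPKM, with 2.96 to 71.6 elsewhere (-4.11 ± 0.17, adjusted p = 3.94e-06).

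Of 30 epithelial genes and regulators, 23 of 26 tested differed in tumors and 17 of 18 in CAFs, where 91.1% and 80.4% of all genes did. Pan02 had 19 of 26 called higher and 1 lower in tumors (median 1.95, background 18.8% and 7.92%) and 11 of 18 higher and 1 lower in CAFs (median 1.38, background 9.73% and 8.41%), while B16 tumors had 11 lower and 2 higher (median -1.65, background 19.6% and 13.1%). Ehf, an ETS factor of epithelia, rose in Pan02 tumors to 103 ± 77.8 CPM, with at most 0.491 elsewhere (9.65 ± 0.49), and the keratins Krt19 and Krt18 to 350 ± 121 and 1069 ± 229 CPM (7.84 ± 0.31 and 7.03 ± 0.17). In CAFs, Krt18 was at 416 ± 95.1 RPKM in Pan02 (5.94 ± 0.24), Krt8 was at 0.258 ± 0.0233 RPKM in MC38 against 84.2 to 545 elsewhere (-7.75 ± 0.14), and Ovol2, an epithelial repressor of Zeb1, was at 27.7 ± 5.96 RPKM in MC38 against at most 0.695 elsewhere (4.63 ± 0.18). MC38 CAFs were also the group with the lowest Zeb1, and a link between Ovol2 and Zeb1 was not tested. The 5 epithelial markers summed to 2114 to 3344 CPM in Pan02, 1206 to 1270.0 in EO771 and 468 to 739 in LL2 tumors. MC38 tumors were at 8.42 to 61.1 and B16 tumors at 7.56 to 12.5. The EO771 sum was again nearly all Krt8 (mean 1228 CPM). By the mean of log2(CPM + 1), LL2 (4.4 to 4.85) lay above EO771 (3.203 to 3.405). Pan02 tumors held the most RNA of these markers. Zeb1 was called higher in Pan02 against a mean that includes B16 and MC38. In pairwise edgeR tests, Pan02 did not pass against EO771 or LL2 (adjusted p = 0.204 and 0.24).

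Of 24 adhesion and cytoskeleton genes, all 23 tested differed in tumors and 19 of 22 in CAFs, where 91.1% and 80.4% of all genes did. B16 tumors had 15 called lower and 2 higher (median -2.06, background 19.6% and 13.1%), and Pan02 tumors 12 higher and none lower (median 1.55, background 18.8% and 7.92%). Fgfr1, a receptor that N-cadherin is known to bind, fell in B16 tumors to 26.4 ± 7.70 CPM from 353 to 955 elsewhere (-4.38 ± 0.23, adjusted p = 2.02e-09), in the tumors with the most Cdh2. Des, the muscle intermediate filament, fell in B16 (5.33 ± 0.488 CPM, -3.79 ± 1.08), with 8.70 to 366 CPM in the other tumors, among which muscle markers varied as given above. Cdh6, another cadherin, was called higher in B16 (4.21 ± 0.91) at a level of only 0.815 ± 0.229 CPM, with other tumors at up to 1.92. In CAFs, S100a4 (fibroblast-specific protein) fell in EO771 to 61.4 ± 6.10 RPKM from 318 to 761 elsewhere (-2.88 ± 0.19), and Tagln, a smooth muscle actin-binding protein, was called higher there (174 ± 2.60 RPKM, 2.23 ± 0.66) with other libraries at up to 201 RPKM. Tnc, a matrix glycoprotein, was lower in MC38 (-2.27 ± 0.63), where its 2 libraries averaged 50.3 ± 55.1 RPKM.

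The genes whose profile over the 15 tumors was most like that of each of the 10 genes were taken by Pearson r of log2(CPM + 1) among 10573 tested genes with a mean of at least 10 CPM. The tumors fall into 5 models, so r mostly reflects the 5 model means, and no p is given. Twist1 and Twist2 shared their nearest gene, Fgfr1 (r = 0.988 and 0.987), followed by Ppp1r18 and Atp8b2 for Twist1 (0.984 and 0.981) and Fosl1 and Dusp14 for Twist2 (0.984 and 0.983). Snai1 was closest to Pdxp, Grem1 and Rin1 (0.988, 0.984 and 0.977), Zeb1 to Apobr, Plec and Tgif1 (0.986, 0.985 and 0.980) and Prrx1 to Stambpl1, Btbd11 and Ier5 (0.981, 0.979 and 0.979). Prrx2 was closest to Trpm4, Per2 and Tpst2 (0.979, 0.974 and 0.967) and Vim to Cry2, Ctdp1 and Oplah (0.979, 0.958 and 0.952). Weaker likeness was found for Cdh2 (Eya1, Gbe1 and Pclaf at 0.958, 0.958 and 0.955), Zeb2 (Ubr1 and Tef at 0.939 and 0.934) and Snai2 (Fgf7, Ptn and H19 at 0.899, 0.882 and 0.881). None of these nearest genes was one of the 10 themselves.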

How the data were processed

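Whole tumors and sorted FAP+ CAFs were profiled by poly(A) RNA-seq without strand information. Per the labels and the study's methods, the authors aligned reads with STAR 2.5.0c to mm10 and counted reads over exons on both strands with HOMER. The tumor table deposited by the authors holds expected counts in steps of 0.5, which were rounded to whole numbers here. The CAF table deposited by the authors holds RPKM, and with the transcript lengths given in the tumor table these returned whole steps of 0.5 reads for 97.31% to 100% of low values (within 0.1 step). For each of 24940 symbols the transcript of highest mean was kept, after 2 transcripts without a gene name were dropped in each table. Columns of a line with no sample here, 3 for tumors and 2 for CAFs, were not used. Tumors titled Pan01 carry the cell line label of Pan02 and were treated as Pan02.

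Tumor counts were filtered with filterByExpr (15732 genes), scaled by TMM and tested with the edgeR 4.0.16 quasi-likelihood method over all 15 libraries. CAF values, at 1 RPKM or more in at least 2 libraries (13598 genes), were put on the log2(RPKM + 1) scale and fitted in limma 3.58.1 (trend), a scale that understates changes of low genes. Each model was set against the mean of the other models, and neighbors in the order by pairwise contrasts, with Benjamini-Hochberg adjustment over all genes of a contrast. Called genes had an adjusted p under 0.05 and changed by at least 1 on the log2 scale, up or down. Both fits were tested on data simulated from the means and library sizes of the tumors. The tumor fit found most of the changes put in, which were in B16 only and drawn with the same dispersion (0.0559) for every gene. Power in the real tumors, where most genes differed, was not measured. The CAF fit was run on simulated tumors, 2 per model, and missed most of the smaller changes. Its power in CAF libraries themselves was not measured. Replicates of a model differed by more than sampling noise (chi-square per degree of freedom 4.87 to 133.6 in tumors and 7.26 to 45.6 in CAFs), and none were identical. Alternatives were DESeq2 1.42.0, other scalings, filters and pseudocounts, no fold threshold, a replicate block and each library left out in turn. R 4.3.3 and Python 3.11.15 were used.

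The 10 genes, the gene lists and the tests were chosen with earlier results of these data known. Besides the 10 genes, the text names from each list the 3 called genes with the largest change in each table, and for each of the 10 genes the 3 with the highest r, of which 1 for Zeb2 is not reported here. Start regions were taken from RefSeq on GRCm38.p6, where 7 of the 10 genes were matched, and were printed for 5 of them.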

Additional observations from a re-analysis of the deposited data

Results flagged for a closer look

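In the models that both tables share, 5 genes moved one way in every tumor and the other way in every CAF library of the same model, each relative to the mean of the other 3 shared models on the log2 scale. These were 5 of 40 combinations of gene and model searched, and 13.4% of the combinations did the same among all genes tested in both, so the pooled count is near the background. They were uneven by model, with 4 of 10 genes in EO771 (15.4% of all genes) and 1 of 10 in MC38 (15.1%). LL2 and Pan02 had 0 of 10 (8.15% and 14.8% of all genes). The difference between tumors and CAFs was not tested, since the tables were normalized separately. In EO771, Snai2 was at -1.48 in tumors and 0.42 in CAFs. Twist1 in EO771 was at -0.372 in tumors and 0.457 in CAFs, Prrx1 at -0.125 and 1.40, and Vim at -0.382 and 0.242. In MC38, Prrx2 was at -1.04 in tumors and 0.483 in CAFs.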

How the results depend on the processing

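The counts of the 10 genes that differed among models (10 in tumors, 9 in CAFs) stayed within 1.5 times of these under every alternative run. Dropping the fold threshold gave 8 genes in MC38 and 7 in Pan02 tumors, and 4 in EO771, 6 in MC38 and 8 in Pan02 CAFs. Pan02 tumors gave 2 under total-count scaling. With 1 library left out, the lowest count was 2 (without Pan02 replicate 2) in Pan02 tumors, with a highest of 5, and in MC38 CAFs 1 (without replicate 2), with a highest of 2. Steps passed in the CAF order ranged from 8 to 16, at 8 without any 1 of the EO771 or LL2 libraries. With 1 CAF library left out, a model rests on 1 library assumed to vary like the others. Among values of single genes, 5 of the tumor leave-outs and 9 of the CAF leave-outs changed sign, none with an adjusted p under 0.05. With 1 library left out, the tumor values ranged from -0.0134 to 0.0634 for Zeb2 in EO771, from -0.254 to 0.0467 for Prrx2 in MC38 and from -0.0285 to 0.252 for Vim in Pan02. In CAFs they ranged from -0.336 to 0.235 for Snai1 in Pan02, from -0.268 to 0.398 for Snai2 in MC38, from -0.0868 to 0.0819 for Zeb2 in EO771 and from -0.046 to 0.137 for Cdh2 in MC38. Prrx2 in MC38 tumors was at 0.0506 under total-count scaling. Zeb2 in EO771 CAFs was at 0.0067 with a pseudocount of 0.1, 0.014 under median-of-ratios scaling and 0.00204 on recovered reads. The causes were not tested. Run on the recovered reads, an alternative chosen after seeing the data, edgeR called 6 genes in Pan02 CAFs, 5 in LL2 and 2 each in EO771 and MC38, with Cdh2 in Pan02 (-1.55, also -1.49 with a pseudocount of 0.1) among them. With the replicate block, 10 genes differed in tumors and 9 in CAFs, and 16 and 14 steps of the order passed. The block added Snai1 to the calls in LL2 tumors, 8 in all. In tumors, replicate numbers gave no sign of pairing. Deviations of same-numbered tumors correlated at -0.165 to 0.263 (median 0.029), and those of different numbers at -0.321 to 0.343 (median 0.0113). Same-numbered CAF libraries correlated at -0.143 to 0.277 (median 0.108). With 2 libraries per model, the values for different numbers are these with the sign turned. Whether the numbers pair the CAF libraries therefore cannot be decided in this way. The numbers of libraries, 3 per tumor group and 2 per CAF group, limit the precision.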
